A study of Homo sapiens with 6 samples.

Results

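This report describes 30 genes of the solute carrier (SLC) superfamily whose proteins carry amino acids across membranes. They were chosen as a list of gene symbols, with earlier results of these data known. The list covers the SLC1, SLC3, SLC6, SLC7, SLC36, SLC38 and SLC43 families and the mitochondrial carrier SLC25A22. All 30 symbols were found in the count table, which holds 53715 genes. Of the 30, 29 had enough counts for a test and SLC3A1 did not.

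Amino acid transporters of the cell surface differ in what they carry and in what drives them. Some use the sodium gradient to pull amino acids inward, and others are exchangers that let leucine in only as another amino acid leaves. The SLC7 light chains reach the cell surface bound to a heavy chain, SLC3A2 (4F2hc, or CD98) or SLC3A1 (rBAT). Cells short of amino acids activate the kinase GCN2 and the transcription factor ATF4. With C/EBP partners, ATF4 binds composite DNA elements near genes for amino acid import and synthesis, and several of the transporters described here are textbook targets of this pathway. Pluripotent stem cells depend on imported methionine, glutamine and leucine.

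The cells were primed H9, an established line of human embryonic stem cells, transfected with 25 nM of 1 of 3 fluorescein-tagged oligos. The oligos were an antisense control without a specific target (ASO-Ctr), an oligo in the sense direction of the transposon LINE1 (sO-L1) and an antisense oligo against LINE1 (ASO-L1), with 2 libraries each. Every group also received 0.7 uM trans-ISRIB, which counters the effect of eIF2 phosphorylation on translation, 5 uM emricasan, which inhibits caspases, and 10 uM of the ROCK inhibitor Y-27632. These agents were withdrawn after 24 hours, and cells bearing the tag were sorted at 48 hours. The medium used from transfection on is given as mTeSR in one field and as RSeT in another. The labels do not say whether the replicates were separate cultures, so the p-values rest on the spread between these libraries, which may be technical. In the main fit this is the spread left after shifts shared by a replicate number are removed. With 2 residual degrees of freedom, each gene's spread was drawn toward that of other genes (median prior of 44.8 degrees of freedom). No row of the count table stands for LINE1 RNA, so the knockdown was not checked here. In bulk RNA, fewer cells expressing a gene and less RNA per cell cannot be told apart.

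Library totals ranged from 18897936 counts (ASO-Ctr replicate 1) to 67192937 (ASO-Ctr replicate 2). All 10 pluripotency markers, from POU5F1 to SALL4, had counts in every library, and their summed level lay between 8655 and 9345 CPM (normalised read counts, scaled to library size by TMM). Markers of endoderm, mesoderm, trophoblast and blood summed to at most 11 CPM in any library, with HAND1 and HSD3B1 at 0 counts throughout. The 7 neural markers summed to 524 and 532 CPM in ASO-Ctr, 548 and 567 CPM in sO-L1, against 580 and 583 in ASO-L1, mostly from NES and TUBB3. NES (345 and 360 CPM against 307 to 340) and STMN2 lay above the other 4 libraries in both ASO-L1 libraries. TUBB3, DCX, PAX6, SOX1 and ELAVL4 overlapped them, and the mean of DCX was lowest in ASO-L1. The 8 fibroblast markers summed to 409 to 416 CPM in ASO-Ctr, 394 to 407 in sO-L1 and 411 to 412 in ASO-L1, so ASO-L1 lay above sO-L1 but within ASO-Ctr. Within that sum COL1A1 was higher in ASO-L1 (77.1 and 72.5 CPM against 42.9 to 54.1). THY1, the largest term, had its lowest mean there (234 and 226 CPM against 232 to 257) but overlapped. The pluripotency sum was 8738 to 8792 CPM in ASO-L1, below sO-L1 (8912 to 9345) and within the range of ASO-Ctr. Single markers moved in both directions. Both ASO-L1 libraries lay below the other 4 for NANOG, DNMT3B (1356 and 1474 CPM against 1588 to 1701), ZFP42 and DPPA4. They lay above them for SOX2 (509 and 471 CPM against 397 to 455) and, narrowly, SALL4. Of all genes, 15.5% lay below and 15.2% above in this way. The part of these shifts in the results was not tested.

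The promoters of genes that rose together are shown first, because the textbook ATF4 site can be looked for in them. The 300 bases around a RefSeq transcript start (250 before it, 50 after) were searched on both strands for TGATGNAA, the core of the C/EBP-ATF composite element, where N is any base. The motif was present in 3.62% of the 35116 promoters of RefSeq (GRCh38.p14). It was present in 6 of 48 promoter entries of the members (12.5%), and these belong to 6 of the 24 members with an entry. Of these 6 genes, SLC7A1, SLC3A2 and SLC1A5 were higher in ASO-L1 than in both other groups, 3 of the 7 such members with an entry. SLC1A3, SLC1A4 and SLC38A1 were not, 3 of the 17 other members with an entry. Windows of 1 gene can overlap, and a match is a description, not a site of binding. The motif is in capitals in the sequences, which run 5′ to 3′ on the gene's own strand. SLC7A5, the member with the largest rise, has no match in its window, which says only that these letters are not there.
SLC7A1, chr13:29595639-29595938, - strand: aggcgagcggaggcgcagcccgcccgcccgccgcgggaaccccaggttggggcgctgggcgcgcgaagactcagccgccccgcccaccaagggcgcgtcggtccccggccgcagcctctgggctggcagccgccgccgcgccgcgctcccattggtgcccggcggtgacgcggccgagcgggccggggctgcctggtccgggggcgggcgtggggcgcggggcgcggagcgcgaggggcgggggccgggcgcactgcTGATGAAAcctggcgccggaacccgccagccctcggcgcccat
SLC3A2, chr11:62881449-62881748, + strand: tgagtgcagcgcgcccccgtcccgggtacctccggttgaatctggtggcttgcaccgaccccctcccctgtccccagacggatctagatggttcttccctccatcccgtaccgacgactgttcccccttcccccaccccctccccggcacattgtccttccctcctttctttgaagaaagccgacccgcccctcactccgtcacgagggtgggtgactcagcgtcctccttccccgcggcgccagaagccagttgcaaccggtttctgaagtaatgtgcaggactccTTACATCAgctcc
SLC1A5, chr19:46784765-46785064, - strand: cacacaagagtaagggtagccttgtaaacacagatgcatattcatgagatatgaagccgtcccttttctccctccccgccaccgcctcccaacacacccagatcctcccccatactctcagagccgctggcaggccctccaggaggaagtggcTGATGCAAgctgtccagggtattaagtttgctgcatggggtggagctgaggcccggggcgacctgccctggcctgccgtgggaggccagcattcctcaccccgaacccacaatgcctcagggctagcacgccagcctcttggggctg
SLC7A5, chr16:87869458-87869757, - strand: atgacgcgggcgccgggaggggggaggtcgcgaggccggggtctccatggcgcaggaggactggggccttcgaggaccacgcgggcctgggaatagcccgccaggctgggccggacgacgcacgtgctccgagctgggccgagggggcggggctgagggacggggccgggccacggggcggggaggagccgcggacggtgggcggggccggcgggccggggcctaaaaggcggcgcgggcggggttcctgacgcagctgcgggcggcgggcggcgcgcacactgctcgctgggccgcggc

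The match began 7 bases after the transcript start in SLC7A1 and 37 bases after it in SLC3A2, where it lies on the opposite strand. That SLC3A2 start lies downstream of the gene's other 2 entries, which had no match. In SLC1A5 the match began at position -97 from a start that also lies downstream of the gene's other 2 entries, and those had none. Among the genes that did not rise in both comparisons, the match began at position -220 in SLC1A3, -7 in SLC1A4 and -4 in SLC38A1. No match was found for SLC6A9, SLC38A2 or SLC38A5, and SLC7A3 has no entry.

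Levels between genes were compared as CPM per kilobase of exon. SLC38A2 had the highest level per kilobase (139 CPM per kb, mean of all 6 libraries), followed by SLC3A2 (99.1), SLC1A5 (94.0), SLC38A1 (77.1), SLC7A8 (55.6) and SLC7A5 (40.7). SLC38A2 (SNAT2) and SLC38A1 (SNAT1) import small neutral amino acids with sodium, and SLC1A5 (ASCT2) exchanges glutamine and other neutral amino acids. SLC3A2 and SLC1A5 were close, and their order was not tested. At the other end lay SLC1A4 (0.829 CPM per kb), SLC1A2 (0.223), SLC38A3 (0.168) and SLC3A1 (0.0126). Of the heavy chains, SLC3A2 was thus near the top of the order and SLC3A1 at its end. Exon lengths were taken from GENCODE v29, which is not the annotation the reads were counted on, so the order is approximate.

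**Figure D1:**
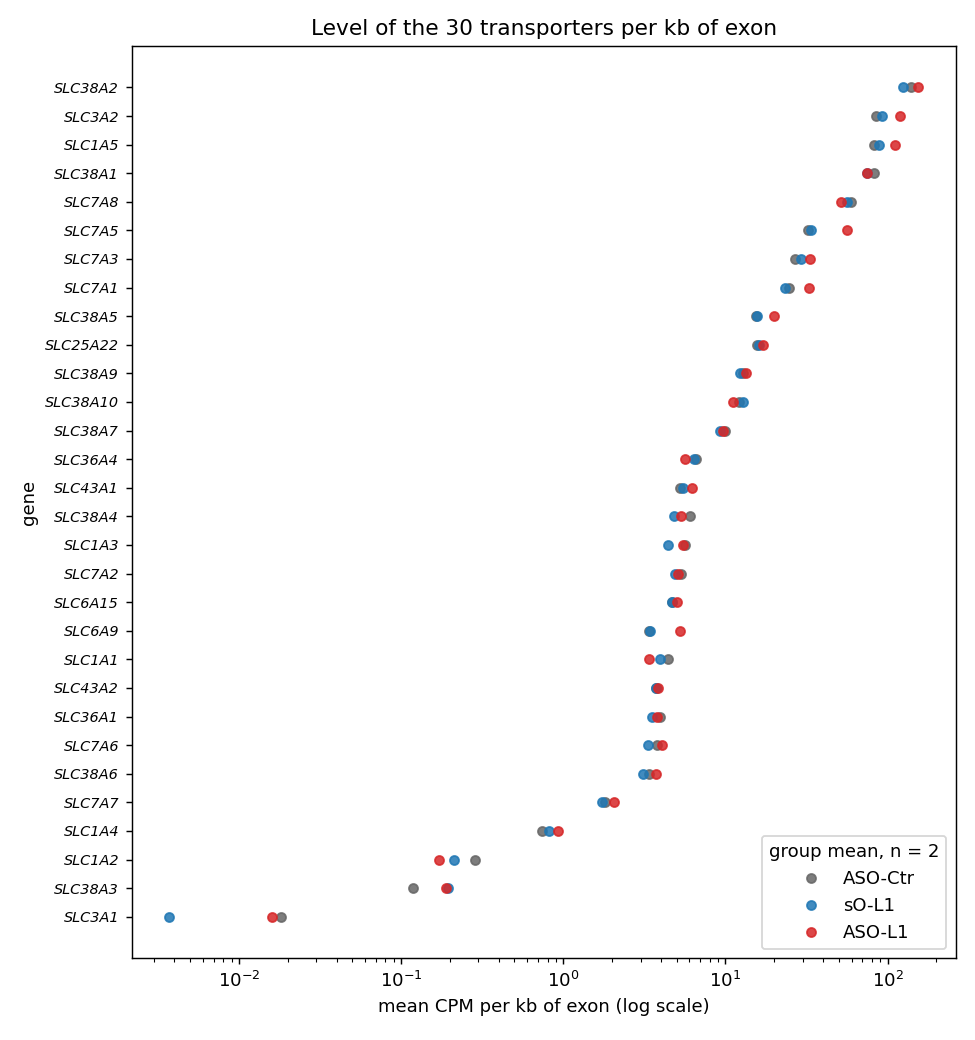
Mean CPM per kilobase of exon of the 30 transporters on a log axis, 1 point per group (n = 2 libraries each), sorted by the mean over all libraries. SLC38A2 is highest at 139 CPM per kb and SLC3A1 lowest at 0.0126, and the group means of most genes lie close together next to the range between genes.

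ASO-L1 against sO-L1 asks what the antisense oligo does beyond the sense oligo. Of the 29 tested transporters, 10 rose, 3 fell and 16 were not called. Among all 19156 genes tested, 23% were called, 10.3% higher and 12.7% lower. The members were chosen with earlier results of these data known, so their shares beside those of all genes are a description only. The median log2 fold change of the members was 0.15, with 23 of 29 above 0, and that of all genes was -0.00051. A call is a Benjamini-Hochberg adjusted p under 0.05 over all genes in edgeR's quasi-likelihood test, with replicate as a block. Without that block, 3 of the 10 rises (SLC7A5, SLC7A1 and SLC6A9) and none of the 3 falls passed, against 1.84% of all genes (0.914% higher, 0.924% lower), and 9 of 29 members had an unadjusted p under 0.05, as did 3167 of the 19156 genes. The groups did not overlap, with ASO-L1 above, in 15 members (23.6% of all genes) and with ASO-L1 below in 2 (23.4%).

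ASO-L1 against ASO-Ctr sets the antisense oligo beside the non-targeting one, and uses the same 2 ASO-L1 libraries, so the comparisons are not independent. Here 9 members rose, 5 fell and 15 were not called, where 21.5% of all genes were called, 9.88% higher and 11.6% lower. The median log2 fold change of the members was 0.10, and that of all genes -0.0024. Without the block 4 rises (SLC7A5, SLC6A9, SLC1A5 and SLC3A2) and 0 falls passed, against 1.95% of all genes (0.903% higher, 1.05% lower), and 11 of 29 members had an unadjusted p under 0.05, as did 3207 of the 19156 genes. The groups did not overlap in 13 members with ASO-L1 higher (23.8% of all genes) and 5 with it lower (24.8%). In total 8 members rose in both ASO-L1 comparisons (6.31% of all genes did) and 2, SLC7A8 and SLC36A4, fell in both (8.22%).

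Both ASO-L1 libraries lay above the other 4 in 12 of 29 members (15.2% of all genes) and below them in 2, SLC36A4 and SLC38A10 (15.5%). The summed level of all 30 members was 3124 and 3283 CPM in ASO-Ctr, 2957 and 3150 CPM in sO-L1, against 3551 and 3555 in ASO-L1 (replicates 1 and 2). The ASO-L1 sums were the highest. Those of the neural markers were highest in ASO-L1 too, though most single neural markers overlapped between groups, and their part was not tested. SLC38A1 and SLC38A2 supply the largest shares of every sum of the members.

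**Figure D2:**
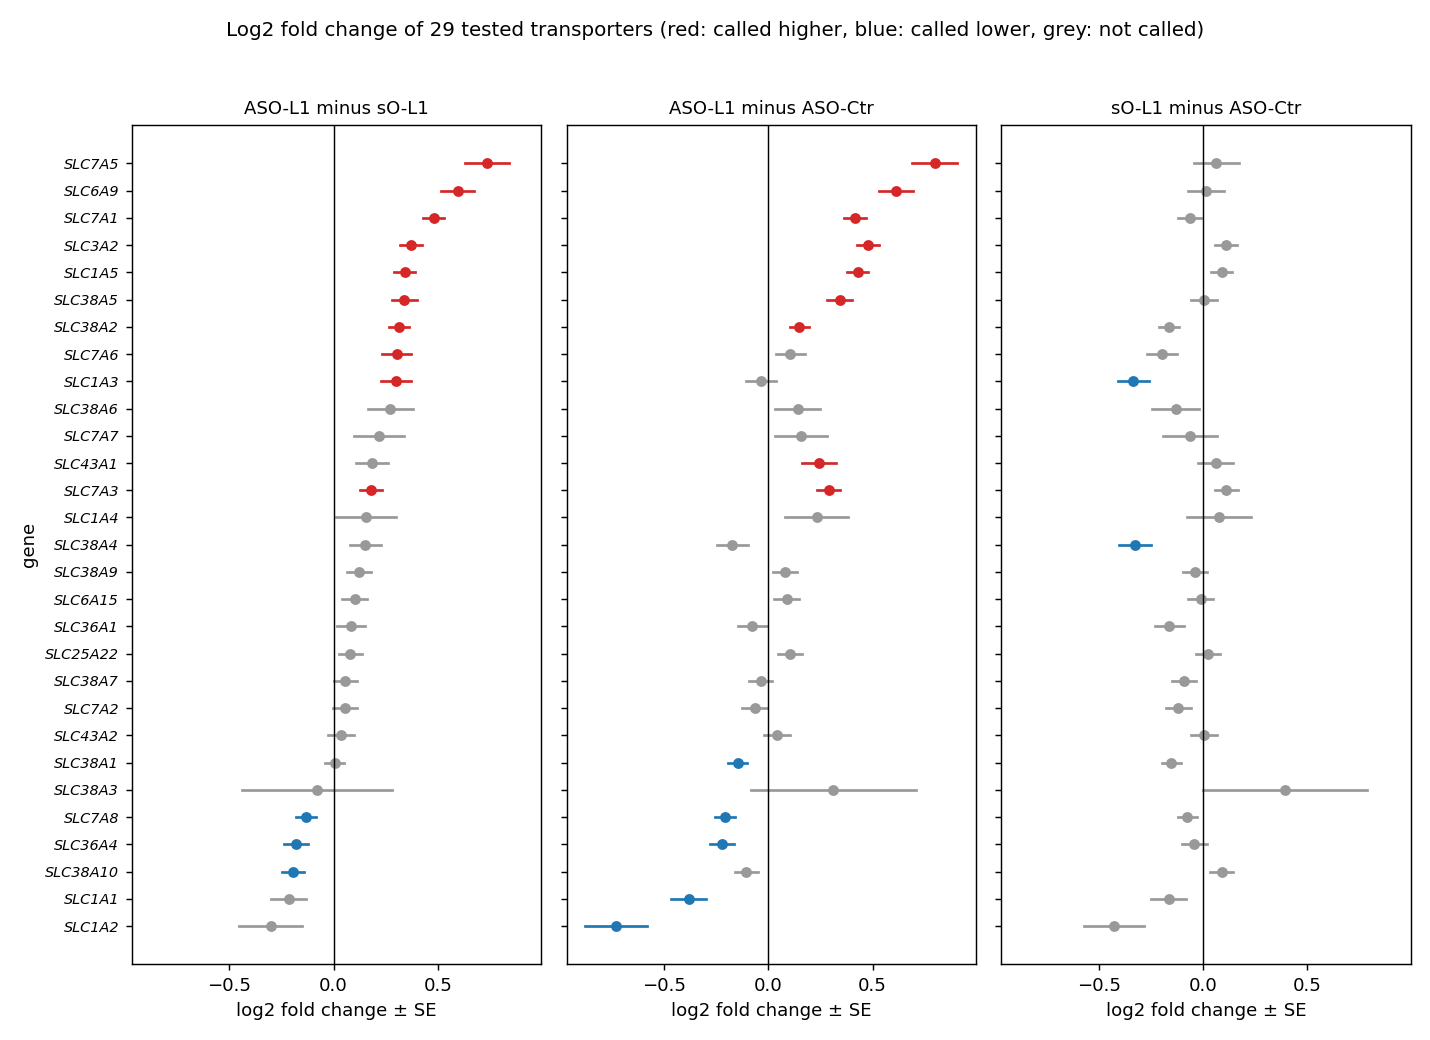
Log2 fold change ± SE (edgeR, replicate block) of the 29 tested transporters in the 3 comparisons, sorted by ASO-L1 minus sO-L1. SLC7A5, SLC6A9 and SLC7A1 stand highest in the comparison with sO-L1 (0.73, 0.60 and 0.48), and only SLC1A3 and SLC38A4 are called in sO-L1 minus ASO-Ctr.

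The heavy chain SLC3A2 and its partner SLC7A5 rose together. SLC7A5 (LAT1) is the light chain that imports leucine and other large neutral amino acids, an input to mTORC1 signalling. SLC7A5 was at 133 and 162 CPM in ASO-Ctr, 147 and 163 CPM in sO-L1, against 274 and 241 in ASO-L1 (replicates 1 and 2). Both ASO-L1 libraries lay far above the other 4, whose groups overlapped each other. SLC7A5 was 1.66-fold higher than in sO-L1 (log2 0.73 ± 0.11 SE, adjusted p = 0.0043, or 0.0153 without the block). Against ASO-Ctr SLC7A5 was 1.74-fold higher (0.80 ± 0.11, adjusted p = 0.00328, or 0.012 without the block). When sO-L1 replicate 1 was left out, the rise over sO-L1 was no longer called (0.68, adjusted p = 0.143).

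SLC3A2 carries the LAT-type light chains to the surface and also binds integrins. SLC3A2 measured 228 and 226 CPM in ASO-Ctr, 245 and 244 CPM in sO-L1, against 350 and 285 in ASO-L1. The ASO-L1 libraries were the highest but differed more from each other than the libraries of the other groups did. The rise over sO-L1 was 1.29-fold (0.37 ± 0.05, adjusted p = 4.6e-07, or 0.0838 without the block) and that over ASO-Ctr 1.39-fold (0.48 ± 0.05, adjusted p = 1.7e-09, or 0.0379 without the block). Without ASO-L1 replicate 1 the SLC3A2 rise over sO-L1 was 0.23, still called (adjusted p = 0.00506).

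Of the 4 light chains listed, SLC7A5 and SLC7A6 rose over sO-L1, SLC7A8 fell and SLC7A7 was not called. SLC7A6 (y+LAT2) exchanges arginine for neutral amino acids. SLC7A6 stood at 21.1 and 27.0 CPM in ASO-Ctr, 18.4 and 23.7 CPM in sO-L1, against 24.4 and 27.5 in ASO-L1. It rose 1.23-fold over sO-L1 (0.30 ± 0.07, adjusted p = 8.2e-04, or 0.356 without the block) and was not called against ASO-Ctr (0.10 ± 0.07, adjusted p = 0.325), whose libraries overlap those of ASO-L1. The rise over sO-L1 was not called without sO-L1 replicate 1 or ASO-L1 replicate 1 (adjusted p = 0.0763 and 0.0883). The gene SLC7A6OS lies on the opposite strand and overlaps its exons, and whether counting used strand is not given, so these counts are uncertain. In GENCODE v29 the exons of SLC7A5, SLC1A5, SLC1A2, SLC38A6, SLC38A10 and SLC25A22 also overlap a gene on the opposite strand, and the same limit holds for them. SLC38A6 further overlaps AL160236.2 on its own strand, where counting by strand would not separate the reads.

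SLC7A8 (LAT2), a light chain for neutral amino acids of any size, moved down. SLC7A8 had 278 and 280 CPM in ASO-Ctr, 250 and 278 CPM in sO-L1, against 231 and 251 in ASO-L1. It fell by 0.21 on the log2 scale against ASO-Ctr (± 0.05, adjusted p = 9.2e-04, or 0.221 without the block), where the groups do not overlap. The drop of 0.13 against sO-L1 (± 0.05, adjusted p = 0.0375, or 0.452 without the block) came with overlapping groups. DESeq2, a fit with no filter and thinning all libraries to the depth of the shallowest did not call this drop (adjusted p = 0.0649, 0.0679 and 0.0676). Against sO-L1 the call was lost whenever any library of either group was left out (adjusted p from 0.065 to 0.396). Against ASO-Ctr it was lost without ASO-Ctr replicate 1 (adjusted p = 0.145). SLC7A7 (y+LAT1), at 4.20 to 5.58 CPM, was not called in any comparison.

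Of the 3 cationic amino acid carriers, which bring in arginine and lysine, SLC7A1 and SLC7A3 rose in both ASO-L1 comparisons. SLC7A1 (CAT1) was at 172 and 189 CPM in ASO-Ctr, 156 and 188 CPM in sO-L1, against 245 and 235 in ASO-L1. The ASO-L1 libraries lay close together and well above the other 4. SLC7A1 was 1.39-fold higher than in sO-L1 (0.48 ± 0.05, adjusted p = 1.3e-09, or 0.0443 without the block) and 1.33-fold higher than in ASO-Ctr (0.41 ± 0.05, adjusted p = 5.4e-08, or 0.0686 without the block).

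SLC7A3 (CAT3) read 55.6 and 66.8 CPM in ASO-Ctr, 61.9 and 70.9 CPM in sO-L1, against 73.6 and 76.7 in ASO-L1. Its ASO-L1 libraries were above the other 4, but the sO-L1 replicates differed by about as much as the means of sO-L1 and ASO-L1. It rose 1.22-fold over ASO-Ctr (0.29 ± 0.05, adjusted p = 5.7e-05, or 0.198 without the block). Against sO-L1 SLC7A3 rose 1.13-fold (0.18 ± 0.05, adjusted p = 0.0095, or 0.437 without the block), and that call was lost without sO-L1 replicate 1, sO-L1 replicate 2 or ASO-L1 replicate 1 (adjusted p = 0.184, 0.0845 and 0.431). Without ASO-L1 replicate 1 the SLC7A3 value was 0.10. DESeq2 did not call the SLC7A3 rise over sO-L1 either (0.18, adjusted p = 0.0554). SLC7A2 (CAT2) lay between 34.9 and 43.3 CPM in all libraries and was not called in any comparison.

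Among the sodium and chloride coupled carriers, SLC6A9 (GLYT1), which imports glycine, had the second largest rise of all members. SLC6A9 was at 14.1 and 15.3 CPM in ASO-Ctr, 13.9 and 15.8 CPM in sO-L1, against 24.2 and 21.3 in ASO-L1. The other 4 libraries lay close together and both ASO-L1 libraries lay above them. The rise was 1.51-fold over sO-L1 (0.60 ± 0.08, adjusted p = 8.9e-08, or 0.0311 without the block) and 1.53-fold over ASO-Ctr (0.61 ± 0.08, adjusted p = 1.2e-07, or 0.0318 without the block). CCDC24 overlaps its exons on the opposite strand. SLC6A15, a carrier of branched-chain amino acids and proline, ranged from 32.8 to 42.1 CPM and was not called.

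Of the neutral exchangers, SLC1A5 rose. SLC1A5 had 270 and 281 CPM in ASO-Ctr, 287 and 299 CPM in sO-L1, against 393 and 350 in ASO-L1. The 3 groups did not overlap, and the step from sO-L1 to ASO-L1 was the larger one. SLC1A5 was 1.27-fold higher than in sO-L1 (0.34 ± 0.05, adjusted p = 5.8e-07, or 0.0625 without the block) and 1.35-fold higher than in ASO-Ctr (0.43 ± 0.05, adjusted p = 3.2e-09, or 0.0318 without the block). Its relative SLC1A4 (ASCT1), which favours serine and alanine, was at 2.97 to 4.89 CPM and was not called. In SLC1A4 the difference between ASO-L1 and sO-L1 had opposite signs in the replicates (0.47 and -0.11 on the log2 scale). Without ASO-L1 replicate 2, SLC1A4 was called higher than sO-L1 (0.52, adjusted p = 0.0354) and ASO-Ctr (0.63, adjusted p = 0.0167).

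**Figure D3:**
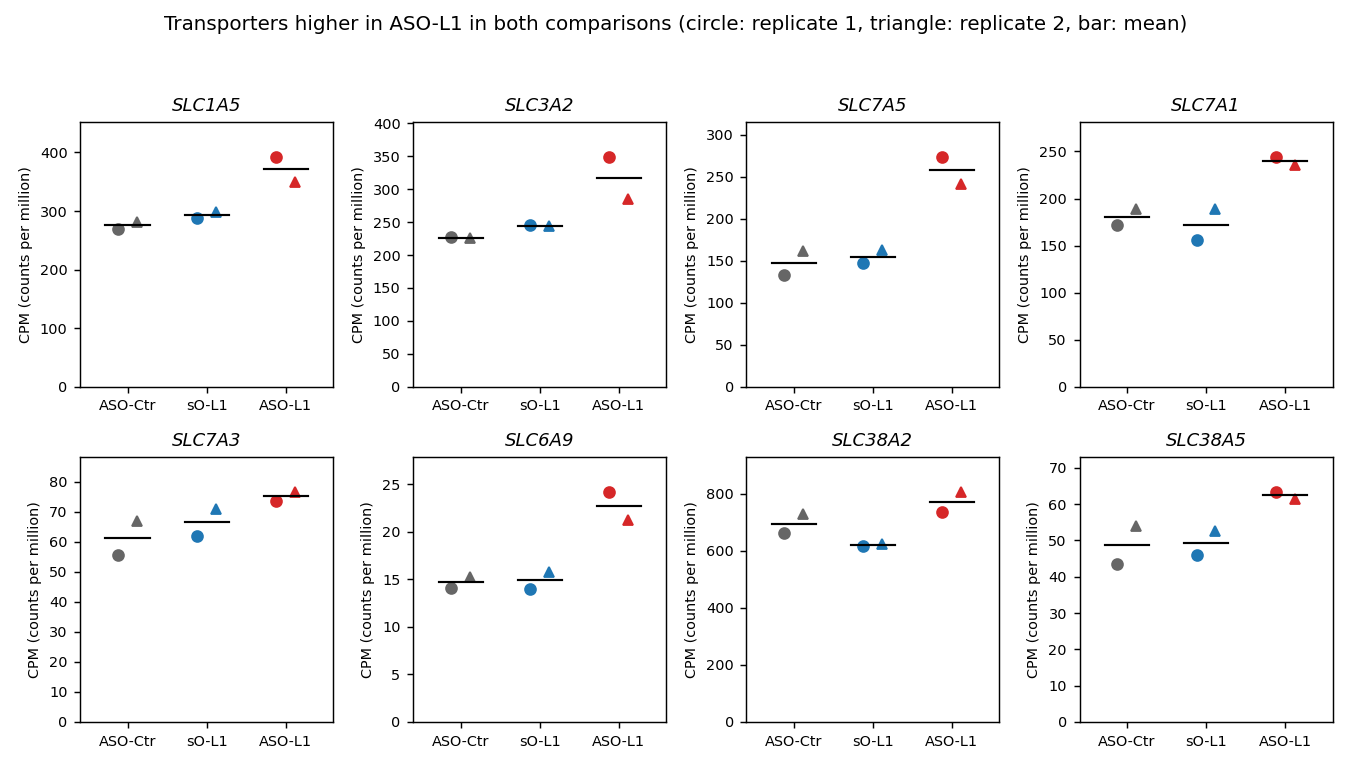
CPM of the 8 transporters that rose in both ASO-L1 comparisons, by group, with replicate 1 as a circle, replicate 2 as a triangle and the mean as a bar; each axis starts at 0. In every panel both ASO-L1 libraries lie above the other 4, as for SLC7A5 at 274 and 241 CPM against 133 to 163.

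The SLC38 carriers of the plasma membrane split. SLC38A2 is induced by amino acid shortage in many cell types. It stood at 663 and 730 CPM in ASO-Ctr, 617 and 624 CPM in sO-L1, against 736 and 808 in ASO-L1. ASO-L1 was highest and sO-L1 lowest, with no overlap between any of the groups. SLC38A2 rose 1.24-fold over sO-L1 (0.31 ± 0.05, adjusted p = 8.3e-07, or 0.0854 without the block) but only 1.11-fold over ASO-Ctr (0.15 ± 0.05, adjusted p = 0.0155, or 0.391 without the block). The call against ASO-Ctr was lost without ASO-Ctr replicate 1 or ASO-L1 replicate 2 (adjusted p = 0.281 and 0.189). Its difference between sO-L1 and ASO-Ctr was -0.16 ± 0.05 (adjusted p = 0.0515), and this SLC38A2 difference passed in 9 of 15 alternatives, DESeq2, limma-voom and thinning among them.

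SLC38A5 (SNAT5), a system N carrier of glutamine, serine and glycine, was at 43.5 and 53.9 CPM in ASO-Ctr, 46.0 and 52.6 CPM in sO-L1, against 63.5 and 61.4 in ASO-L1. The ASO-L1 libraries were above the other 4, which overlapped between groups. The rise was 1.27-fold in both comparisons, 0.34 ± 0.06 against sO-L1 (adjusted p = 1.5e-05, or 0.162 without the block) and 0.34 ± 0.06 against ASO-Ctr (adjusted p = 2.2e-05, or 0.152 without the block). Without ASO-L1 replicate 1 the SLC38A5 values were 0.20 and 0.21, still called (adjusted p = 0.0433 and 0.0237).

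SLC38A1, SLC38A2 and SLC38A4 lie in that order on chromosome 12, and each had its own pattern of calls. SLC38A1 had 776 and 764 CPM in ASO-Ctr, 667 and 717 CPM in sO-L1, against 671 and 719 in ASO-L1. The sO-L1 and ASO-L1 libraries covered the same range, and both groups lay below ASO-Ctr. It fell by 0.15 on the log2 scale in ASO-L1 against ASO-Ctr (± 0.05, adjusted p = 0.0167, or 0.358 without the block), a call lost without ASO-Ctr replicate 1 or ASO-L1 replicate 1 (adjusted p = 0.496 and 0.244). Without ASO-Ctr replicate 1 the SLC38A1 value was -0.09. Against sO-L1 the SLC38A1 difference was 0.01 ± 0.05 (adjusted p = 0.955), and in sO-L1 against ASO-Ctr it was -0.15 ± 0.05 (adjusted p = 0.0821), which passed in 4 of 15 alternatives.

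SLC38A4 (SNAT4), a system A carrier, was at 22.9 and 25.5 CPM in ASO-Ctr, 17.6 and 20.6 CPM in sO-L1, against 18.1 and 24.5 in ASO-L1. The sO-L1 libraries lay below those of ASO-Ctr, and ASO-L1 spanned both. With all libraries, SLC38A4 was called only in sO-L1 against ASO-Ctr, where it fell by 0.33 (± 0.08, adjusted p = 0.0133, or 1 without the block). With limma-voom this call was lost (-0.32, adjusted p = 0.053). That call was lost without ASO-Ctr replicate 1, sO-L1 replicate 1 or sO-L1 replicate 2 (adjusted p from 0.281 to 0.325). SLC38A4 gained a call against sO-L1 without ASO-L1 replicate 1 (0.26, adjusted p = 0.0356), and against ASO-Ctr without ASO-Ctr replicate 2 (-0.29, adjusted p = 0.0472) or ASO-L1 replicate 2 (-0.32, adjusted p = 0.0165).

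Of the SLC38 members found mainly on lysosomes or of less settled place, SLC38A10 fell in 1 comparison and 3 were not called. SLC38A9 is the arginine sensor of the lysosome that signals to mTORC1, and it lay between 43.0 and 47.4 CPM in all libraries. SLC38A9 was not called, although both ASO-L1 libraries (46.85 and 47.35 CPM) were above the other 4, the next being ASO-Ctr replicate 1 at 46.78. SLC38A7, a lysosomal exporter of glutamine and asparagine, ranged from 47.7 to 51.8 CPM, and SLC38A6 from 6.00 to 7.83 CPM. SLC38A10 was at 55.6 and 55.5 CPM in ASO-Ctr, 56.3 and 61.2 CPM in sO-L1, against 50.4 and 52.5 in ASO-L1. It fell by 0.19 against sO-L1 (± 0.05, adjusted p = 0.00574, or 0.249 without the block), and the call was lost without sO-L1 replicate 2 (-0.15, adjusted p = 0.22). After thinning all libraries to the depth of the shallowest, its value was -0.10 (adjusted p = 0.286).

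Of the 3 glutamate and aspartate carriers of the SLC1 family, SLC1A3 rose over sO-L1, and SLC1A1 and SLC1A2 fell against ASO-Ctr. SLC1A2 (GLT-1), best known from astrocytes, had 3.66 and 4.74 CPM in ASO-Ctr, 2.73 and 3.52 CPM in sO-L1, against 2.26 and 2.82 in ASO-L1. ASO-Ctr was highest and ASO-L1 had the lowest mean, with an overlap between sO-L1 and ASO-L1. SLC1A2 fell by 0.73 on the log2 scale in ASO-L1 against ASO-Ctr (± 0.15, adjusted p = 2.0e-04, or 0.108 without the block). Against sO-L1 the difference was -0.30 ± 0.15 (adjusted p = 0.153), and between sO-L1 and ASO-Ctr it was -0.43 ± 0.15 (adjusted p = 0.142). After thinning, the SLC1A2 values became -0.015 against sO-L1 and -0.78 in sO-L1 against ASO-Ctr (adjusted p = 0.0208).

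SLC1A1 (EAAT3), a carrier of glutamate and cysteine, was at 14.5 and 18.4 CPM in ASO-Ctr, 13.4 and 15.9 CPM in sO-L1, against 10.4 and 14.7 in ASO-L1. Replicate 2 was the higher library in every group, and the groups overlapped. SLC1A1 fell by 0.38 against ASO-Ctr (± 0.08, adjusted p = 5.8e-04, or 0.301 without the block), and against sO-L1 the SLC1A1 difference was -0.22 ± 0.08 (adjusted p = 0.0525), which passed in 4 of 15 alternatives.

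SLC1A3 (GLAST) differed in sO-L1. It was at 23.7 and 23.3 CPM in ASO-Ctr, 18.0 and 18.9 CPM in sO-L1, against 21.3 and 24.1 in ASO-L1. The sO-L1 libraries lay below the other 4, and ASO-L1 overlapped ASO-Ctr. SLC1A3 thus rose 1.23-fold in ASO-L1 over sO-L1 (0.30 ± 0.07, adjusted p = 0.00135, or 0.158 without the block) and fell by 0.34 in sO-L1 against ASO-Ctr (± 0.07, adjusted p = 0.00877, or 1 without the block). Its difference between ASO-L1 and ASO-Ctr was -0.03 ± 0.07 (adjusted p = 0.797). After thinning, the fall in sO-L1 against ASO-Ctr was not called (-0.28, adjusted p = 0.104). The rise was lost without sO-L1 replicate 2 or ASO-L1 replicate 2 (adjusted p = 0.0815 and 0.122), and the fall without any library of its comparison except ASO-Ctr replicate 2 (adjusted p from 0.203 to 0.334).

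**Figure D4:**
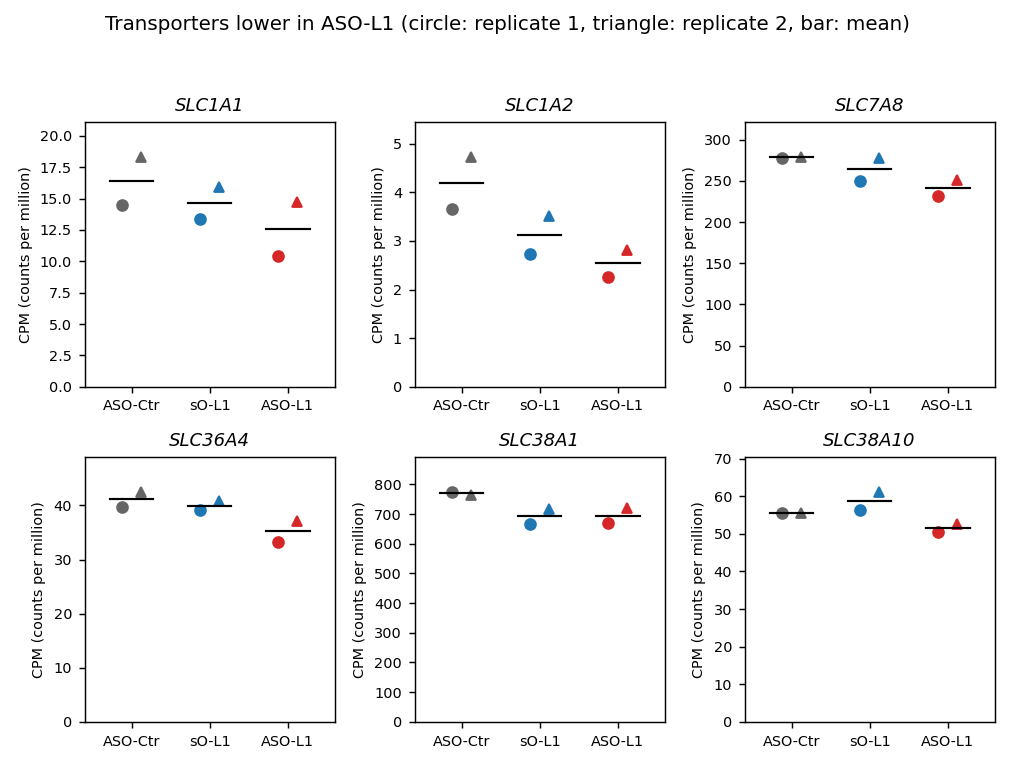
CPM of the 6 transporters that fell in at least 1 ASO-L1 comparison, by group, with replicate 1 as a circle, replicate 2 as a triangle and the mean as a bar; each axis starts at 0. For SLC7A8, SLC36A4, SLC38A1 and SLC38A10 the shifts are small beside the levels, as for SLC7A8 at 231 and 251 CPM in ASO-L1 against 278 and 280 in ASO-Ctr. SLC1A2 and SLC1A1 have the largest fold changes (log2 -0.73 and -0.38 against ASO-Ctr).

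The SLC36 carriers, the SLC43 uniporters and the mitochondrial carrier showed small differences. SLC36A4 was at 39.8 and 42.5 CPM in ASO-Ctr, 39.2 and 40.8 CPM in sO-L1, against 33.3 and 37.2 in ASO-L1. It fell in both ASO-L1 comparisons, by 0.18 against sO-L1 (± 0.06, adjusted p = 0.0193, or 0.338 without the block) and by 0.22 against ASO-Ctr (± 0.06, adjusted p = 0.00428, or 0.231 without the block). DESeq2 and thinning did not call the fall against sO-L1 (adjusted p = 0.102 and 0.141). Against sO-L1 the SLC36A4 call was lost without sO-L1 replicate 1, sO-L1 replicate 2 or ASO-L1 replicate 1 (adjusted p = 0.27, 0.0781 and 0.265). Against ASO-Ctr it was lost without ASO-Ctr replicate 2 or ASO-L1 replicate 1 (adjusted p = 0.0528 and 0.0868), and thinning brought the value to -0.09. SLC36A1 (PAT1), found on lysosomes and at the surface, ranged from 21.8 to 26.4 CPM and was not called.

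SLC43A1 (LAT3) lets leucine and its relatives through by facilitated diffusion. SLC43A1 rose 1.18-fold over ASO-Ctr, from 13.7 and 14.7 to 16.6 and 17.2 CPM (0.24 ± 0.08, adjusted p = 0.0242, or 0.246 without the block), and that call was lost without any of the 4 libraries compared (adjusted p from 0.109 to 0.129). DESeq2 did not call the SLC43A1 rise over ASO-Ctr either (0.25, adjusted p = 0.13). Against sO-L1, at 14.6 and 15.1 CPM, the SLC43A1 difference was 0.19 ± 0.08 (adjusted p = 0.0819), or 0.30 after thinning (adjusted p = 0.0332). SLC43A2 (LAT4) lay between 31.4 and 36.1 CPM. SLC25A22, which moves glutamate into mitochondria, lay between 50.4 and 60.0 CPM. Neither gene was called in any comparison.

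Members with few counts were kept apart. SLC3A1, whose protein pairs with SLC7A9 in kidney cystine uptake, had 2 and 9 counts in ASO-Ctr, 0 and 3 counts in sO-L1, against 8 and 2 in ASO-L1, 24 in all. It did not pass the filter and has no test. PREPL, on the opposite strand, and AC013717.1, on the same strand, overlap the exons of SLC3A1. A count of 0 in sO-L1 replicate 1 allows up to 0.0881 CPM (3 counts, counting error only). SLC38A3 (SNAT3), a glutamine carrier of liver and kidney, had 4 and 34 counts in ASO-Ctr, 22 and 32 counts in sO-L1, against 33 and 23 in ASO-L1. It passed the filter, but its SE of 0.36 to 0.40 on the log2 scale is the largest of the members (the next is 0.15, for SLC1A4), and a difference was not detectable at this depth.

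In sO-L1 against ASO-Ctr, the comparison of the control oligos, 0 members rose and SLC1A3 and SLC38A4 fell, where 1.72% of all genes were called, 0.658% higher and 1.06% lower. Without the block no member and no gene was called, with 2 members and 569 genes at an unadjusted p under 0.05. DESeq2 called 0 members higher and 1 lower, SLC38A2 (-0.16, adjusted p = 0.0471), and gave no adjusted p for SLC1A3 or SLC38A4. The members' median log2 fold change was -0.04. The 8 genes that rose in both ASO-L1 comparisons had differences between -0.16 (SLC38A2) and 0.11 (SLC7A3) here. Without ASO-Ctr replicate 2, SLC7A5 was called higher in sO-L1 (0.24, adjusted p = 0.0419).

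Most rises of members in ASO-L1 were larger in replicate 1, a share that was not counted over all genes. Of the 10 members that rose over sO-L1, 8 had the larger difference in replicate 1, and all 10 had the same sign in both replicates. Among all 19156 genes tested, called or not, 13809 had the same sign in both. A call with the replicate block favours equal signs. Of the 9 that rose over ASO-Ctr, 9 had the larger difference in replicate 1. For SLC7A5 the log2 difference from ASO-Ctr was 1.04 in replicate 1 and 0.58 in replicate 2, and for SLC3A2 it was 0.62 and 0.34. The sequencing depth of ASO-Ctr also differed most between its replicates, and its part in this was not tested.

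The genomic span of the members was read from RefSeq (GRCh38.p14). For the 8 that rose in both ASO-L1 comparisons it had a median of 23.7 kb and ranged from 5.5 kb (SLC7A3) to 86.3 kb (SLC7A1). The 6 members that fell in at least 1 of those comparisons had a median span of 72.2 kb, from 50.5 kb (SLC38A10) to 169 kb (SLC1A2). The 12 called in neither had a median of 57.1 kb. The rule for the rises was stricter than that for the falls. SLC1A3, SLC7A6 and SLC43A1, which rose in only 1 ASO-L1 comparison, are in none of these sets. They span 91.7, 37.3 and 31.2 kb. These spans are a description of a few genes and were not tested.

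**Figure D5:**
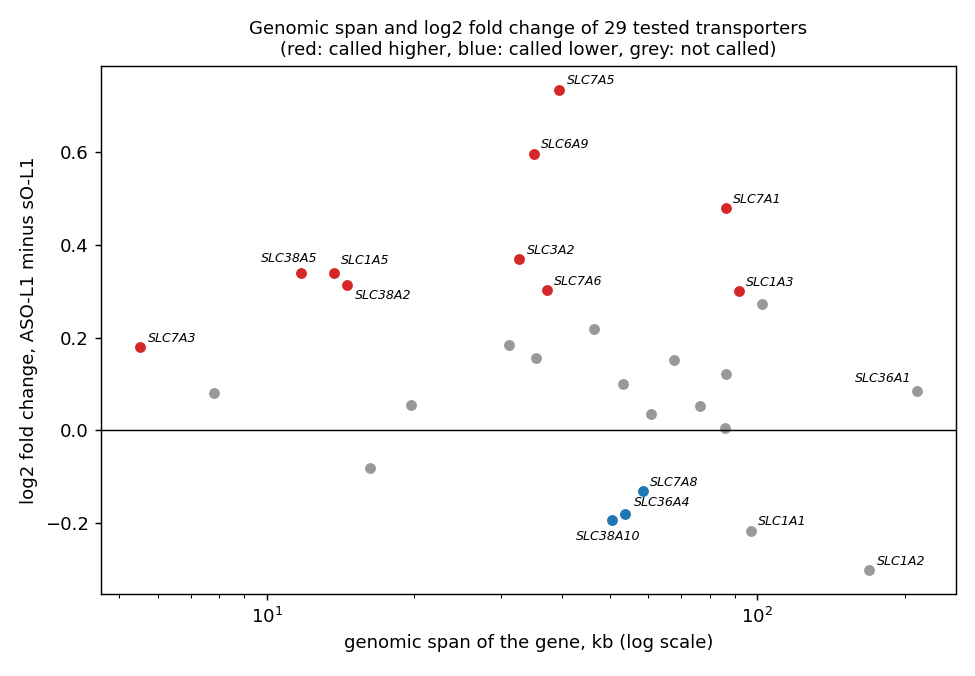
Genomic span (kb, log axis) against log2 fold change in ASO-L1 minus sO-L1 for the 29 tested transporters, colored by call. The genes under 20 kb include SLC7A3, SLC38A5, SLC1A5 and SLC38A2, which rose, and SLC25A22, SLC38A3 and SLC38A7, which were not called, while the 3 that fell span 50.5 to 58.4 kb and SLC7A1 rose at 86.3 kb.

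In the authors' deposited table for ASO-L1 minus sO-L1, 10 of the members have an adjusted p under 0.05 and a positive log2 fold change, 3 a negative one, and 16 do not pass. These are the same calls for all 29 genes as in the blocked fit, and the log2 fold changes differed by at most 0.04. SLC7A5 has a log2 fold change of 0.74 in the authors' deposited table (adjusted p = 1.4e-10). That table rests on the same libraries and is not independent.

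Of 32 further carriers, 18 could be tested, and 1 rose and 3 fell in ASO-L1 against sO-L1 (5.56% and 16.7%, beside 10.3% and 12.7% of all genes), with a median log2 fold change of -0.03. Against ASO-Ctr, 1 rose and 5 fell (5.56% and 27.8%, beside 9.88% and 11.6% of all genes). In sO-L1 against ASO-Ctr 0 rose and SLC6A6, the taurine carrier, fell by 0.32 (± 0.05, adjusted p = 6.5e-05, or 1 without the block). The gene that rose in both ASO-L1 comparisons was SLC7A11, the cystine carrier that also pairs with SLC3A2, at 111 CPM against 51.2 in sO-L1 (1.11 ± 0.06, adjusted p = 3.1e-21, or 0.00209 without the block). The 3 that fell against sO-L1 are mitochondrial carriers, and the other 4 mitochondrial carriers tested, SLC25A18, SLC25A29, SLC25A38 and SFXN1, were not called (0.33, -0.07, 0.02 and -0.08). SLC25A13 (citrin) exchanges aspartate for glutamate and fell by 0.63 (± 0.05, adjusted p = 6.6e-14, or 0.00795 without the block). SLC25A12 (aralar), its close relative, fell by 0.24 (± 0.07, adjusted p = 0.014, or 0.242 without the block). SLC25A15, the ornithine carrier, fell by 0.23 (± 0.07, adjusted p = 0.0122, or 0.254 without the block).

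All 32 genes listed for amino acid sensing by mTORC1 and GCN2 could be tested. The list also holds genes of the stress response that are not sensors, such as ATF4, DDIT3 and TRIB3, which are among the rises. In ASO-L1 against sO-L1, 9 rose, 6 fell and 17 were not called (28.1% and 18.8%, beside 10.3% and 12.7% of all genes). Without the block 4 rose and 0 fell, beside 0.914% and 0.924% of all genes. The smallest p-values belonged to DDIT4, an inhibitor of mTORC1 (1.21 ± 0.09, adjusted p = 3.6e-14), SESN2, the leucine sensor sestrin 2 (0.75 ± 0.06, adjusted p = 8.4e-14), DDIT3, the stress factor CHOP (1.41 ± 0.12, adjusted p = 1.3e-12), and ATF4 (0.37 ± 0.05, adjusted p = 1.6e-08). Without the block these became adjusted p = 0.0153, 0.00805, 0.0339 and 0.0842, so the ATF4 call was lost. The 4 that rose without the block were DDIT4, SESN2, DDIT3 and TRIB3. The 6 that fell against sO-L1 were EIF2AK4 (GCN2), IMPACT, LAMTOR5, RRAGA, LAMTOR2 and RHEB. EIF2AK4 fell by 0.21 against sO-L1 (± 0.05, adjusted p = 9.5e-04, or 0.362 without the block). Against ASO-Ctr it fell by 0.22 (± 0.05, adjusted p = 5.1e-04, or 0.328 without the block). Against ASO-Ctr 10 rose and 4 fell (31.2% and 12.5%, beside 9.88% and 11.6% of all genes), and in sO-L1 against ASO-Ctr 0 rose and 1, SESN3 (named after its values were seen), fell.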

How the data were processed

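Poly(A) RNA of 6 libraries, 2 per oligo, was sequenced with a directional kit, per the labels' protocols. Reads were trimmed (Trim Galore 0.4.0), mapped to hg19 (TopHat2 2.0.13) and counted per gene (featureCounts of Subread 1.5.0), per the submitters' processing notes. The deposited counts are raw, with duplicates removed according to the table's name, and the strand setting is not given in the sources used here. Removal of duplicates can lower the counts of the most abundant genes. The deposited log2 table holds batch-corrected values and served to settle the sign of the authors' deposited comparison table (same sign in 16295 of 16576 shared genes), whose columns are log2 fold changes, p-values and a test score.

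After 92 spike-in entries were removed, 53715 genes remained, and 19156 passed filterByExpr (minimum count 10, minimum total 15). TMM-scaled counts were tested in edgeR 4.0.16, run in R 4.3.3 (quasi-likelihood, robust, all 6 libraries, group plus replicate number, 2 residual degrees of freedom). Each SE was derived from the log2 fold change and its F statistic. The study lists a batch-corrected table, so the replicate number is in the design, but the labels do not say what it marks. Replicate differences had correlations of 0.224, 0.153 and 0.246 between groups. The fit without the block stands beside the results. The fit was also run on simulated data, which took its spread from the blocked fit and gave all groups the same replicate shift. That run therefore cannot bear on whether the replicate numbers mark a real pairing.

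The members and the 2 further lists were chosen with earlier results of these data known. By rule all 30 members are named. Each library's CPM is given for members called in an ASO-L1 comparison with an absolute log2 fold change of at least 0.3, and, beyond that rule and with values seen, for the other called members. Of the further carriers the called genes are named where 5 or fewer, otherwise the 4 with the smallest p against sO-L1, and of the sensing genes those 4. The other sensing genes were named after their values were seen. CPM per kb used GENCODE v29 exon lengths. Alternatives were DESeq2 1.42.0, limma-voom (limma 3.58.1), other scalings and filters, the 4 libraries compared, each library left out and adjusted p under 0.1. Thinning was added after the data were seen.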

Additional observations from a re-analysis of the deposited data

How the results depend on the processing

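No result about a transporter changed direction among called values: of 1290 combinations of a member, a comparison and an alternative, 0 reversed a called value, 66 lost a call and 27 gained one. Of the 66 losses, 22 came with no replicate block, 33 with a library left out and 11 with the other alternatives. Only members called in the main fit could lose or reverse a call, so most of the 1290 combinations could not. These were 13, 14 and 2 of 29 members in ASO-L1 minus sO-L1, ASO-L1 minus ASO-Ctr and sO-L1 minus ASO-Ctr. Values not called could change sign, as SLC1A4 in ASO-L1 minus sO-L1 did (-0.15 to 0.52). The labels do not say what a replicate number marks, so the calls that pass only with the replicate block rest on a pairing that is not established. Without the replicate block 352, 374 and 0 genes were called in ASO-L1 minus sO-L1, ASO-L1 minus ASO-Ctr and sO-L1 minus ASO-Ctr, against 4412, 4120 and 330 with it. The members higher were then 3, 4 and 0, and those lower 0, 0 and 0, with the replicate block removed. DESeq2 called 2364, 2441 and 125 genes, with 1 member lower in ASO-L1 minus sO-L1 and 1 in sO-L1 minus ASO-Ctr. In sO-L1 minus ASO-Ctr, limma-voom called 168 genes, the fit to the 4 libraries compared 516, and adjusted p under 0.1 gave 520 genes and 4 members lower. Thinning to the shallowest library, in 1 random draw, left 0 members lower in ASO-L1 minus sO-L1 and 4 in sO-L1 minus ASO-Ctr. With 1 library left out at a time, genes called ranged from 1802 to 4702, 2336 to 3693 and 9 to 496 in the order above. Members higher ranged from 7 to 10, 7 to 9 and 0 to 1, and members lower from 0 to 4, 3 to 6 and 0 to 4. A group with 1 library left is assumed to vary like the others. The cause of these changes was not tested. Depth limits SLC38A3 (148 counts in all) and SLC3A1 (24).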
